A study of Mus musculus with 24 samples.

Results

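The genes that build, load and move cilia were followed in mouse choroid plexus under 2 forms of human apolipoprotein E and 2 diets. The set was taken by name from the array's annotation: every single gene symbol that begins with Ift, Bbs, Cfap, Rsph, Tekt, Dnah or Dnai and goes on with a digit, with Foxj1, Spa17 and Kif3a besides. It held 33 of the 12393 genes on the array, and each gene stood for itself through the probe set with its highest mean signal. Of these, 28 were Present (the authors' detection call for a signal above background) on at least 6 of 24 arrays and were tested. The other 5, Cfap157, Cfap97, Dnah1, Rsph6a and Tekt2, did not reach that minimum and have no test. The names Spag6, Dnali1, Dynlrb2 and Arl13b, which also belong to the rule, did not match a single symbol and were not analysed here.

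Cilia are slender, microtubule-based projections, and their proteins are carried along the axoneme by intraflagellar transport (IFT). IFT-B trains run outward on kinesin-2, IFT-A serves the return trip and the import of membrane proteins, and the BBSome is a coat-like cargo adaptor of membrane receptors. Motile cilia add dynein arms, radial spokes and tektins under the control of the transcription factor FOXJ1. Choroid plexus epithelial cells bear tufts of cilia, and the ependymal cells beside them move cerebrospinal fluid along the ventricle wall.

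Mice of strain C57BL carried a humanized ApoE4 or ApoE3 gene in place of their own (knock-in), and they were 78 weeks old. There were 4 groups of 6 arrays each, 3 from males and 3 from females: ApoE4 on high-fat diet, ApoE3 on high-fat diet, ApoE4 on normal chow and ApoE3 on normal chow. Both genotypes carry a human form, and no group is labelled as carrying the mouse gene. Choroid plexus was cut from frozen tissue by laser capture microdissection and hybridized to Affymetrix arrays. The labels do not say that the arrays of a group come from separate animals, so each p-value reflects how far these samples scatter, which may be technical.

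The label of the tissue fits its markers. Ttr, the transthyretin of choroid plexus epithelium, had signals of 13080 to 25450, and Kl, Aqp1, Otx2 and Folr1 were Present on 24 of 24 arrays. Ependymal markers such as Mia and Cd24a were also Present on 24 of 24 arrays, as were Mbp of myelin and Snap25 of neurons, so the signals come from a mixture of cells. In such bulk tissue, fewer cells of a type and less RNA per cell cannot be told apart. The median signal averaged 151 ± 5.92 in ApoE4 and 173 ± 4.60 in ApoE3 on high-fat diet (SD, n = 6 each). The number of arrays limits the precision of every value.

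The genotype comparison asks how ApoE4 choroid plexus differs from ApoE3 choroid plexus on the same diet. On high-fat diet the set moved in both directions: Ift74, Ift80 and Cfap36 rose, while Dnah8, Cfap61, Ift140 and Ift88 fell in ApoE4. In limma, with Benjamini-Hochberg adjustment over 8261 genes and a threshold of 0.05, that is 3 higher and 4 lower of 28 tested genes, or 25%, beside 27.9% of all genes tested (10.8% higher and 17.1% lower). On chow 0 were higher and 2 lower (Ift140 and Dnah8), or 7.14%, beside 9.74% of all genes (4.14% higher and 5.6% lower). At an unadjusted p under 0.05 there were 11 of the 28 on high-fat diet (39.3%, beside 40% of all genes) and 8 on chow (28.6%, beside 27.8%). The 8 on chow include Dnah11, which was Present on 0 ApoE3 arrays, so its level in ApoE3 is only a bound. The share of the set that passed was thus near that of all genes on both diets. The median log2 difference of the 28 genes was 0.01 on high-fat diet and 0.05 on chow, against -0.05 and -0.02 over all genes tested. All differences below are on the log2(signal + 16) scale, which understates the change of dim genes.

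**Figure D1:**
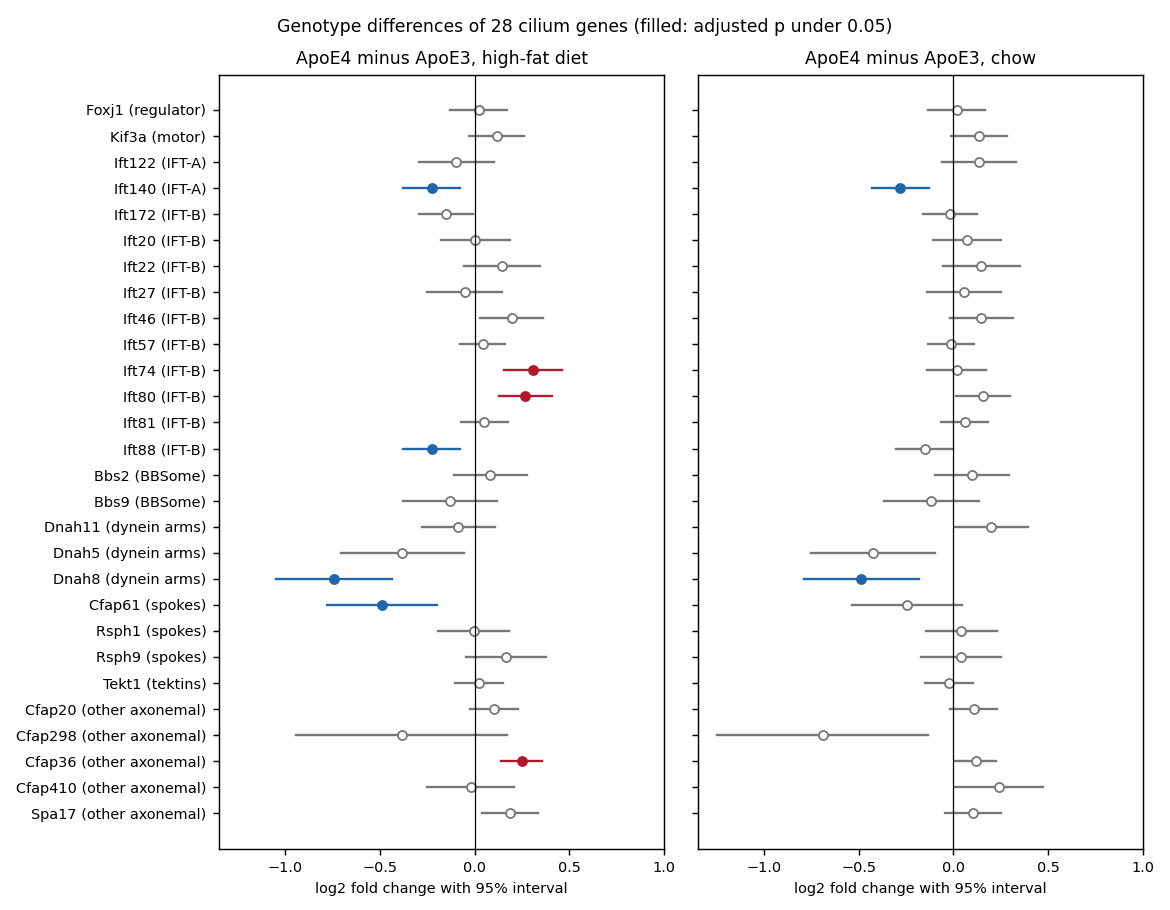
Log2 fold changes of the 28 tested cilium genes (horizontal axis, log2(signal + 16) scale) with 95% intervals, ApoE4 minus ApoE3, on high-fat diet (left) and chow (right); genes run down the page by role. Filled points passed an adjusted p of 0.05 in limma, red for higher and blue for lower in ApoE4: 3 and 4 genes on high-fat diet, 0 and 2 on chow.

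The IFT-B complex, which forms the outward trains, held 10 tested genes, of which 2 rose, 1 fell and 7 did not pass on high-fat diet. Ift74 encodes a core subunit that binds tubulin cargo together with IFT81. On high-fat diet the lowest, median and highest signals of Ift74 were 2121, 2509 and 2929 in ApoE4, against 1820.5, 1997 and 2344 in ApoE3. Of the 6 ApoE4 arrays, 4 lay above all ApoE3 arrays, and the groups overlapped. The log2 difference was 0.31 ± 0.08 (SE), a 1.24-fold higher level (limma, adjusted p = 0.00442). On chow the same measures of Ift74 were 1983, 2227 and 2680.5 in ApoE4, against 2077, 2258 and 2474 in ApoE3, and the groups overlapped at a log2 difference of 0.02 ± 0.08 (SE). The test of whether the genotype difference of Ift74 itself differed between diets gave 0.29 ± 0.11 (SE) with an unadjusted p of 0.011 and an adjusted p of 0.358 in limma, so it did not pass.

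Ift80, whose protein sits at the edge of the IFT-B complex and which is mutated in human skeletal ciliopathies, moved the same way. Its signals on high-fat diet were 624, 712 and 776 in ApoE4, against 538, 597 and 649.9 in ApoE3, as lowest, median and highest. All but 1 of the ApoE4 arrays lay above every ApoE3 array. The log2 difference of Ift80 was 0.27 ± 0.07 (SE), or 1.2-fold (limma, adjusted p = 0.00644). A further probe set of Ift80 was higher too, by 0.31 ± 0.08 (SE, adjusted p = 0.0047 in a limma fit over probe sets). On chow the difference of Ift80 was 0.15 ± 0.07 (SE) with an interval of 0.01 to 0.30 and an adjusted p of 0.144, and its further probe set gave 0.01 ± 0.08 (SE).

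Ift88, a core IFT-B subunit whose loss in the mouse prevents cilium assembly, was the IFT-B gene that fell. On high-fat diet its lowest, median and highest signals were 458, 496 and 516 in ApoE4 and 524, 561 and 699 in ApoE3. Every ApoE4 array lay below every ApoE3 array. Groups without overlap and with ApoE4 lower were found for 5.06% of all genes tested on high-fat diet. The log2 difference of Ift88 was -0.23 ± 0.07 (SE), a 1.17-fold lower level (limma, adjusted p = 0.0234). One ApoE3 array, male replicate 1, had the highest Ift88 signal at 699, and without that array the adjusted p was 0.0756. On chow Ift88 had signals of 488, 510.1 and 569 in ApoE4, against 519, 544 and 684 in ApoE3, and the difference of -0.15 ± 0.07 (SE) did not pass (limma, adjusted p = 0.18).

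The other 7 IFT-B genes tested did not pass on either diet. Ift81, the partner of IFT74 in tubulin binding, had signals of 1677, 1904 and 2063 in ApoE4 and 1706, 1765 and 1942 in ApoE3 on high-fat diet, and a log2 difference of 0.05 ± 0.06 (SE) with an interval of -0.07 to 0.18. A further probe set of Ift81, Present on 24 of 24 arrays, gave larger differences of 0.22 ± 0.09 (SE) on high-fat diet and 0.25 ± 0.09 (SE) on chow, which did not pass (limma over probe sets, adjusted p = 0.0828 and 0.0837). Ift57, a peripheral subunit, had a difference of 0.04 ± 0.06 (SE) on high-fat diet and -0.01 ± 0.06 (SE) on chow. Ift20, which also works at the Golgi, had differences of 0.00 ± 0.09 (SE) on high-fat diet and 0.07 ± 0.09 (SE) on chow. The interval of Ift57 on high-fat diet ran from -0.08 to 0.16. Ift46, a core subunit, stood at 0.20 ± 0.08 (SE) on high-fat diet, with an interval of 0.03 to 0.36 and an adjusted p of 0.0713. Ift22, a small GTPase-like subunit, had 0.14 ± 0.10 (SE) on high-fat diet and 0.15 ± 0.10 (SE) on chow. Ift172, a peripheral subunit, had -0.15 ± 0.07 (SE) on high-fat diet and -0.02 ± 0.07 (SE) on chow. Ift27, another small GTPase, had -0.05 ± 0.10 (SE) on high-fat diet and 0.06 ± 0.10 (SE) on chow with the probe set used. One further probe set of Ift27 gave -0.45 ± 0.13 (SE) on chow (limma over probe sets, adjusted p = 0.0268) and another 0.04 ± 0.09 (SE), so the probe sets of this gene disagree.

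Kif3a encodes a motor subunit of kinesin-2, which drives IFT-B trains to the cilium tip. Its signals were 517, 565 and 583 in ApoE4 and 455, 508 and 568 in ApoE3 on high-fat diet, as lowest, median and highest. On chow its signals were 492, 579.9 and 625 in ApoE4 and 449.6, 533 and 566 in ApoE3. The groups overlapped on both diets, and the differences of 0.11 ± 0.07 (SE) on high-fat diet and 0.14 ± 0.07 (SE) on chow did not pass in limma (adjusted p = 0.234 and 0.213). A further probe set of Kif3a gave -0.09 ± 0.13 (SE) on high-fat diet and 0.12 ± 0.13 (SE) on chow.

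**Figure D2:**
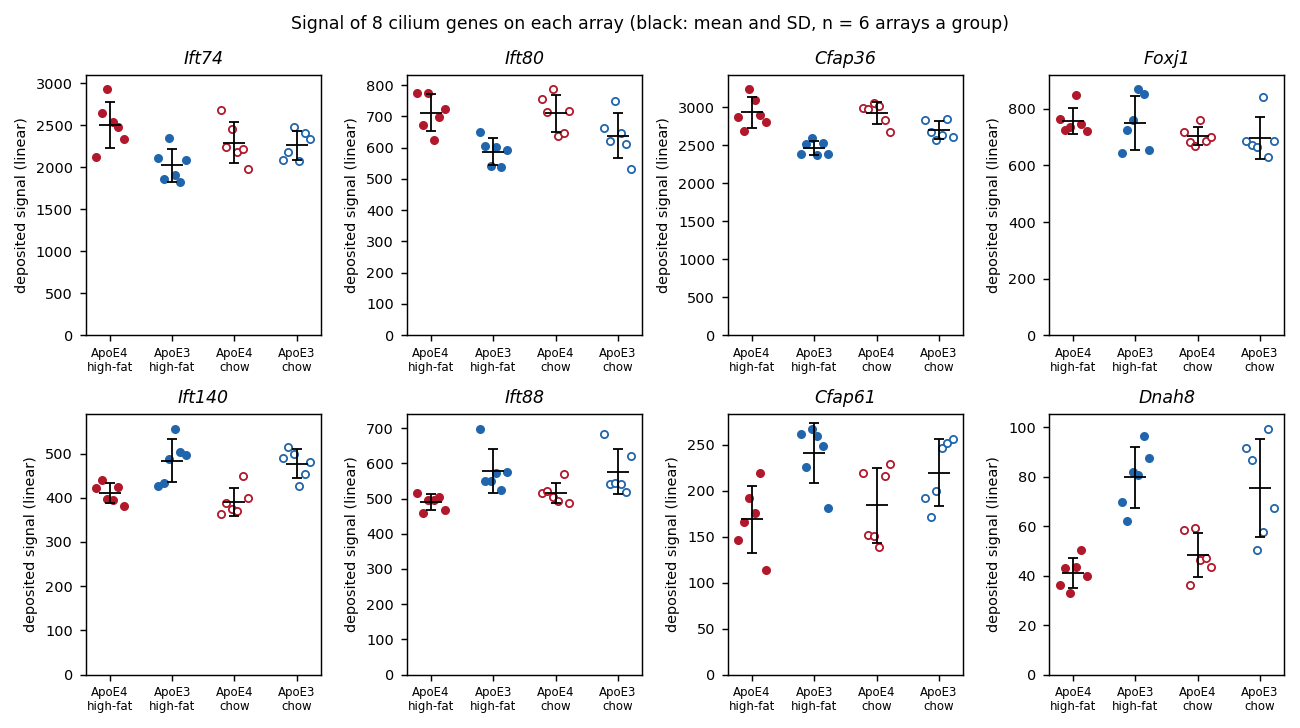
Deposited signal (vertical axis, linear scale from 0) of 8 cilium genes on each array, with ApoE4 (red) left of ApoE3 (blue) on high-fat diet (filled) and chow (open); black bars give mean and SD of 6 arrays. Cfap36, Ift88 and Dnah8 have no overlap between the genotypes on high-fat diet, while the groups of Foxj1 overlap throughout.

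IFT-A was represented by Ift140 and Ift122, both subunits of its core. Ift140 passed on both diets with ApoE4 lower, as Dnah8 did. On chow its lowest, median and highest signals were 364, 380.4 and 449.9 in ApoE4, against 426, 485 and 515 in ApoE3. On high-fat diet they were 381, 409 and 441 in ApoE4, against 427, 493 and 556 in ApoE3. On each diet 5 of the 6 ApoE4 arrays lay below all ApoE3 arrays. The log2 difference of Ift140 was -0.28 ± 0.07 (SE) on chow, a 1.21-fold lower level (limma, adjusted p = 0.0175). The high-fat diet value was -0.23 ± 0.07 (SE), or 1.17-fold lower (adjusted p = 0.023), and this call was lost without ApoE3 replicate 4 (adjusted p = 0.0684) or ApoE4 replicate 6 (adjusted p = 0.0561). Ift122 did not pass, with -0.10 ± 0.10 (SE) on high-fat diet and 0.14 ± 0.10 (SE) on chow.

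Both BBSome genes, Bbs2 and Bbs9, missed the threshold on both diets. Bbs2, whose product helps form the core of the complex, had signals of 294 to 490.4 over the 24 arrays and differences of 0.08 ± 0.09 (SE) on high-fat diet and 0.10 ± 0.09 (SE) on chow. Bbs9 had signals of 177 to 339, with differences of -0.13 ± 0.12 (SE) on high-fat diet and -0.12 ± 0.12 (SE) on chow. The interval of Bbs9 on high-fat diet, -0.38 to 0.12, leaves room for a change in either direction.

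Among the dynein arm genes, which encode the heavy chains that power ciliary beating, Dnah8 fell on both diets. It is best known as an outer arm heavy chain of sperm flagella. On high-fat diet its signals were 33.1, 41.5 and 50.5 in ApoE4 and 62.2, 81.3 and 96.4 in ApoE3, as lowest, median and highest, with all ApoE4 arrays below all ApoE3 arrays. The log2 difference was -0.74 ± 0.15 (SE), or 1.68-fold lower on this scale (limma, adjusted p = 0.000933). These signals are dim: on high-fat diet Dnah8 was Present on 4 ApoE4 and 6 ApoE3 arrays, and its further probe set was Present on 0 of 24 arrays. The size therefore moved with the constant added before the log, to -0.94 with 1 and to -0.45 with 64, while the call held. On chow Dnah8 had signals of 36.4, 46.8 and 59.3 in ApoE4 and 50.3, 77 and 99.5 in ApoE3, which overlap, and a difference of -0.49 ± 0.15 (SE) (adjusted p = 0.0364). With quantile normalization the chow difference was -0.26 with an adjusted p of 0.253, and leaving out ApoE3 replicate 1, 2 or 5 or ApoE4 replicate 2, 4 or 6 also ended that call, with adjusted p of 0.0567 to 0.0935. The difference in those fits stayed at -0.47 to -0.42.

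The other dynein heavy chains tested, Dnah5 and Dnah11, are outer arm chains known from airway cilia. Dnah5 was Present on 8 of 24 arrays. Its signals on high-fat diet were 61.2, 91 and 125 in ApoE4 and 96.2, 119.7 and 143 in ApoE3, and on chow 74.2, 91.2 and 114 in ApoE4 and 89.5, 132 and 186 in ApoE3. The differences of Dnah5, -0.38 ± 0.16 (SE) on high-fat diet and -0.42 ± 0.16 (SE) on chow, did not pass (limma, adjusted p = 0.0729 and 0.0848). Dnah11 was Present on 5 ApoE4 and 0 ApoE3 arrays on high-fat diet, and on 4 ApoE4 and 0 ApoE3 arrays on chow. Its signals nevertheless overlapped, with 414, 503 and 563 in ApoE4 and 446, 522 and 643 in ApoE3 on high-fat diet, and 479, 524 and 640.0 in ApoE4 and 397, 470.1 and 538 in ApoE3 on chow. The differences were -0.09 ± 0.09 (SE) and 0.20 ± 0.09 (SE) and did not pass (limma, adjusted p = 0.516 and 0.166). Dnah11 entered the test through its ApoE4 arrays, and where every ApoE3 array lacks a Present call its level there is only a bound. The detection call thus split by genotype, and whether the level did cannot be read from a bound. The share of all probe sets called Present was also higher in ApoE4, at 59.0 ± 1.14% and 55.4 ± 1.76% in ApoE3 on high-fat diet (SD, n = 6 each). The part of these calls in the Dnah11 pattern was not tested.

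Radial spoke genes gave 1 call. Cfap61 encodes a protein of a spoke-associated complex, known best from Chlamydomonas flagella and mouse sperm. Its lowest, median and highest signals on high-fat diet were 114, 171 and 219 in ApoE4, against 181, 254 and 268 in ApoE3. Of the ApoE4 arrays, 4 lay below all ApoE3 arrays, and the groups overlapped through the lowest ApoE3 array. The log2 difference of Cfap61 was -0.49 ± 0.14 (SE), a 1.4-fold lower level (limma, adjusted p = 0.0132). On chow its signals were 139, 184 and 229 in ApoE4 and 171, 223 and 256 in ApoE3, and the difference of -0.25 ± 0.14 (SE) did not pass (adjusted p = 0.257). Rsph1 and Rsph9, which form part of the spoke head, missed the threshold on both diets. Rsph1 had signals of 1233, 1557 and 1780.3 in ApoE4 and 1294, 1549.8 and 1859 in ApoE3 on high-fat diet and a difference of -0.01 ± 0.09 (SE), with an interval of -0.19 to 0.18. Rsph9 had 2128, 2759.5 and 3052 in ApoE4 and 2155, 2375 and 2564 in ApoE3, and a difference of 0.17 ± 0.10 (SE) with an interval of -0.05 to 0.38.

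Other axonemal genes were led by Cfap36, whose protein binds the cilium GTPase ARL3. On high-fat diet its signals were 2681, 2885 and 3235 in ApoE4 and 2365, 2454 and 2594 in ApoE3, as lowest, median and highest. The groups did not overlap, with all 6 ApoE4 arrays higher; among all genes tested 3.68% had groups without overlap in that direction. The log2 difference of Cfap36 was 0.25 ± 0.05 (SE), or 1.19-fold (limma, adjusted p = 0.00147). On chow Cfap36 had 2667, 2985 and 3053 in ApoE4 and 2571, 2654 and 2846 in ApoE3. There 4 of 6 ApoE4 arrays lay above all ApoE3 arrays, and the difference of 0.12 ± 0.05 (SE) did not pass (adjusted p = 0.144). Cfap36 also had the lowest spread of the set, a within-group SD of 0.07 on the log2 scale, beside a median of 0.15 over the 28 genes and 0.18 over all genes tested.

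Spa17, a sperm and cilium protein with a domain that binds A-kinase anchoring proteins, stood just outside the threshold. Its signals on high-fat diet were 939, 1022 and 1117 in ApoE4 and 819.7, 897 and 948 in ApoE3, with 5 of 6 ApoE4 arrays above all ApoE3 arrays. The log2 difference was 0.19 ± 0.07 (SE) with an interval of 0.04 to 0.34 (limma, adjusted p = 0.0535), and it passed in 9 of 34 alternatives (adjusted p of 0.0352 to 0.0484). On chow it was 0.10 ± 0.07 (SE) (adjusted p = 0.356). Cfap20, a protein of the junction between the tubules of a doublet, had 0.10 ± 0.06 (SE) on high-fat diet and 0.11 ± 0.06 (SE) on chow, neither past the threshold, and its further probe set gave 0.02 ± 0.07 (SE) and 0.10 ± 0.07 (SE). Cfap410, a basal body protein, had -0.02 ± 0.11 (SE) on high-fat diet and 0.24 ± 0.11 (SE) on chow, again not past it.

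Cfap298, which is needed for the assembly of dynein arms, had the widest spread of the set, with a within-group SD of 0.47 on the log2 scale. Its signals on chow were 650.3, 1438 and 2260.1 in ApoE4 and 1764, 2076 and 2168 in ApoE3. Of the 6 ApoE4 arrays 5 lay below all ApoE3 arrays and 1 above them all. The difference of -0.69 ± 0.27 (SE) did not pass (limma, adjusted p = 0.101), and it passed once ApoE4 replicate 5 was left out (-0.88, adjusted p = 0.0272). A further probe set of Cfap298, Present on 24 of 24 arrays, had signals of 1054, 1151 and 1214 in ApoE4 and 1020, 1161 and 1306 in ApoE3 on chow and a difference of -0.01 ± 0.07 (SE). The probe sets of this gene thus disagree, and the one used is of a kind that can share sequence with other transcripts (suffix x_at), as is the one used for Ift27.

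Tekt1, a filament protein inside the doublet tubules of motile cilia, and Foxj1, the master regulator of motile ciliogenesis, had differences near 0 with narrow intervals. Foxj1 had signals of 723, 742 and 848 in ApoE4 and 645, 742 and 869 in ApoE3 on high-fat diet, and 669, 695 and 759 in ApoE4 and 629, 679.9 and 840.4 in ApoE3 on chow. The groups overlapped fully. The log2 difference of Foxj1 was 0.02 ± 0.07 (SE) on high-fat diet and 0.02 ± 0.07 (SE) on chow, with an interval of -0.13 to 0.17 on both. Tekt1 had differences of 0.02 ± 0.06 (SE) on high-fat diet and -0.02 ± 0.06 (SE) on chow, with intervals of -0.10 to 0.15 and -0.15 to 0.10.

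**Figure D3:**
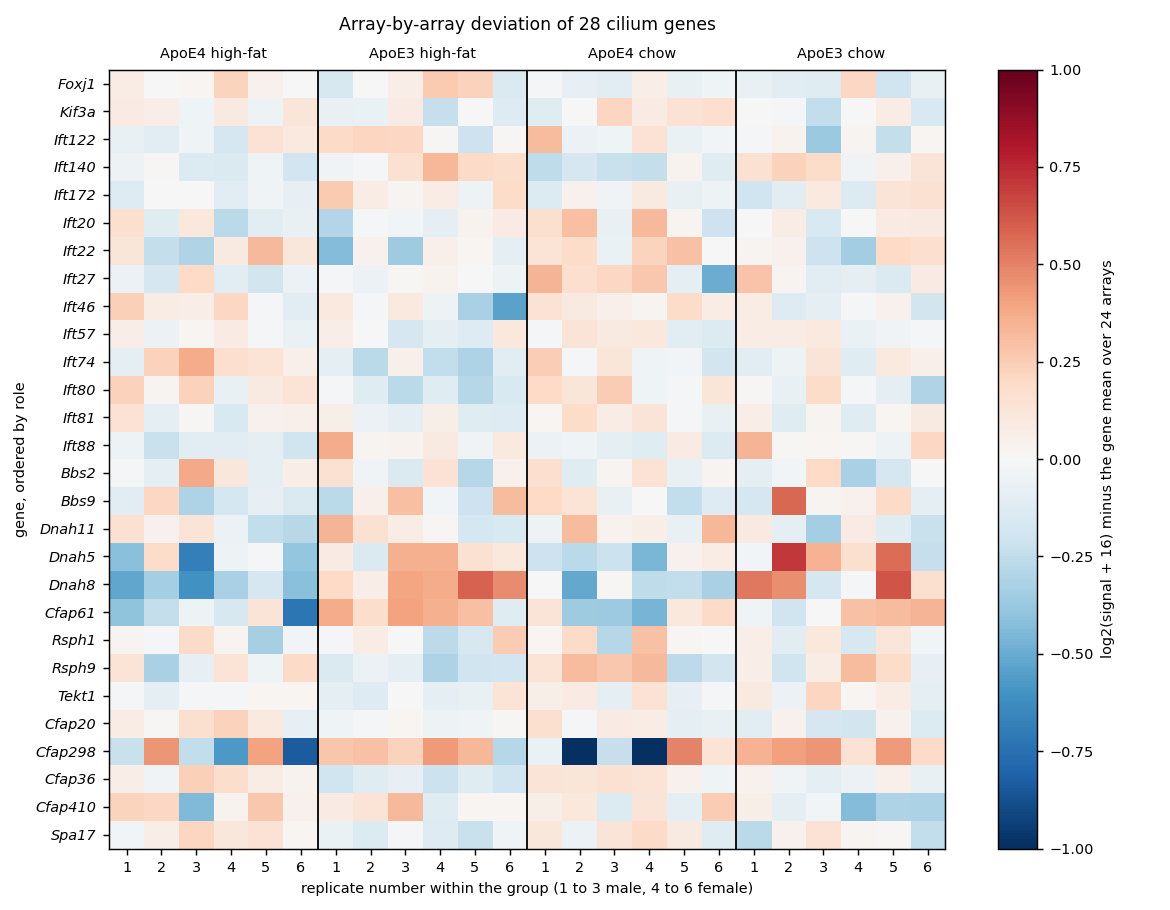
Deviation of log2(signal + 16) from each gene's mean over 24 arrays, for the 28 tested cilium genes (rows, by role) on each array (columns, 6 a group, with ApoE4 left of ApoE3 on high-fat diet and then on chow); the colour scale ends at -1 and 1. Dnah8 and Cfap61 are low in ApoE4 on high-fat diet, Ift140 is low in ApoE4 on both diets, and Cfap298 swings from array to array.

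The 5 genes without a test had low signals. Cfap157 was Present on 1 of 24 arrays, with signals of 15.5 to 68.1. Tekt2, Rsph6a, Dnah1 and Cfap97 were Present on 0 of 24 arrays with the probe sets used. Tekt2 had signals of 6 to 63.1, Rsph6a 3 to 92 and Dnah1 12.4 to 105. Cfap97 had 12.3, 54.8 and 71.6 in ApoE4 and 3.3, 5.85 and 21.5 in ApoE3 on chow. Signals called Absent have no order, so nothing is drawn from them.

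The X-box, the motif bound by RFX transcription factors that act with FOXJ1 at ciliary genes, was looked for in the promoters of the set. It was written as GTNNCC, 0 to 3 further bases and NGNAAC, on both strands, within 250 bases before and 50 after each transcription start in RefSeq (build GRCm38.p6). Promoters were found for 26 of the 33 genes, and 6 of these 26 (23.1%) held a match, against 5.94% of 27025 genes. The 6 were Cfap298, Cfap61, Ift22, Ift57, Ift74 and Tekt2, so 1 gene that rose on high-fat diet (Ift74), 1 that fell (Cfap61) and 3 tested genes that did not pass had one. The windows of Ift140, Ift88, Dnah8 and Cfap36 held no such letters. Ift80 and Foxj1 are among the 7 genes without an entry. A match describes the letters and shows no binding. The sequences of Ift74 (chr4:94614241-94614540, plus strand), Cfap61 (chr2:145934534-145934833, plus strand) and Ift57 (chr16:49699044-49699343, plus strand) follow, as 1 gene of each kind, 5′ to 3′ along the gene, with the matches in capitals.
Ift74: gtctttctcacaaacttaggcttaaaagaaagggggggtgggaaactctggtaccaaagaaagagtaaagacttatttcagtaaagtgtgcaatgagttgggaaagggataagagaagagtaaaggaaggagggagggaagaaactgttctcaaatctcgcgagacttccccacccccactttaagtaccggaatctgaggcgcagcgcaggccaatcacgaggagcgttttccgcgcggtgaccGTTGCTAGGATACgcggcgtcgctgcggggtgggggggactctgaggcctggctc
Cfap61: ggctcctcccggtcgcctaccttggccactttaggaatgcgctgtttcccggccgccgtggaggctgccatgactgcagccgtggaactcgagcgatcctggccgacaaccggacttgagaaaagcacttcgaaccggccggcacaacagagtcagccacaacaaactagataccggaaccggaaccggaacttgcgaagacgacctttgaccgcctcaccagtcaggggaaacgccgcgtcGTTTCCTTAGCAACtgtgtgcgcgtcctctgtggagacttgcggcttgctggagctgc
Ift57: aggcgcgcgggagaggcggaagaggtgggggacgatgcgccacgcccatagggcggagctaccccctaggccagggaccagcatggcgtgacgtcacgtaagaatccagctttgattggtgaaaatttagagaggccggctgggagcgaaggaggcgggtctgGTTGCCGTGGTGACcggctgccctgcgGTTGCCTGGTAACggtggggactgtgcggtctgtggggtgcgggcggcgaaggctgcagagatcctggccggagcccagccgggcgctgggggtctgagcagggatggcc
In Ift74 the match lay on the reverse strand and read GTATCCTAGCAAC there. Counted along the gene, its place began 5 bases before the start. In Cfap61 it read GTTTCCTTAGCAAC and began 8 bases before the start. Ift57 held 2 places, 87 and 60 bases before the start, and its level did not differ between genotypes beyond the spread. The motif was thus present in genes of the set that rose, fell or missed the threshold.

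The diet comparison asks what a high-fat diet did within each genotype. In limma 0 of 28 cilium genes passed in ApoE4, and 0 of 28 in ApoE3, beside 0% of all genes tested in ApoE4 and 0.23% in ApoE3. At an unadjusted p under 0.05 there were 0 of the 28 in ApoE4, beside 6.97% of all genes, and 4 in ApoE3 (14.3%), beside 13.4% of all genes. The smallest adjusted p of the set was 0.789 in ApoE4 and 0.273 in ApoE3. In ApoE3 the 4 genes were Cfap36, Cfap410, Rsph9 and Ift74. Cfap36 had 2365, 2454 and 2594 on high-fat diet and 2571, 2654 and 2846 on chow in ApoE3, a difference of -0.13 ± 0.05 (SE). Ift74 had a difference of -0.16 ± 0.08 (SE) in ApoE3 and of 0.13 ± 0.08 (SE) in ApoE4. Rsph9 had -0.22 ± 0.10 (SE) in ApoE3, and Cfap410 had 0.26 ± 0.11 (SE). Foxj1 had differences of 0.10 ± 0.07 (SE) in ApoE4 and 0.10 ± 0.07 (SE) in ApoE3, with intervals of -0.05 to 0.25 and -0.05 to 0.25. The diet differences share their arrays with the genotype differences, so the 2 sets of values are not independent.

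**Figure D4:**
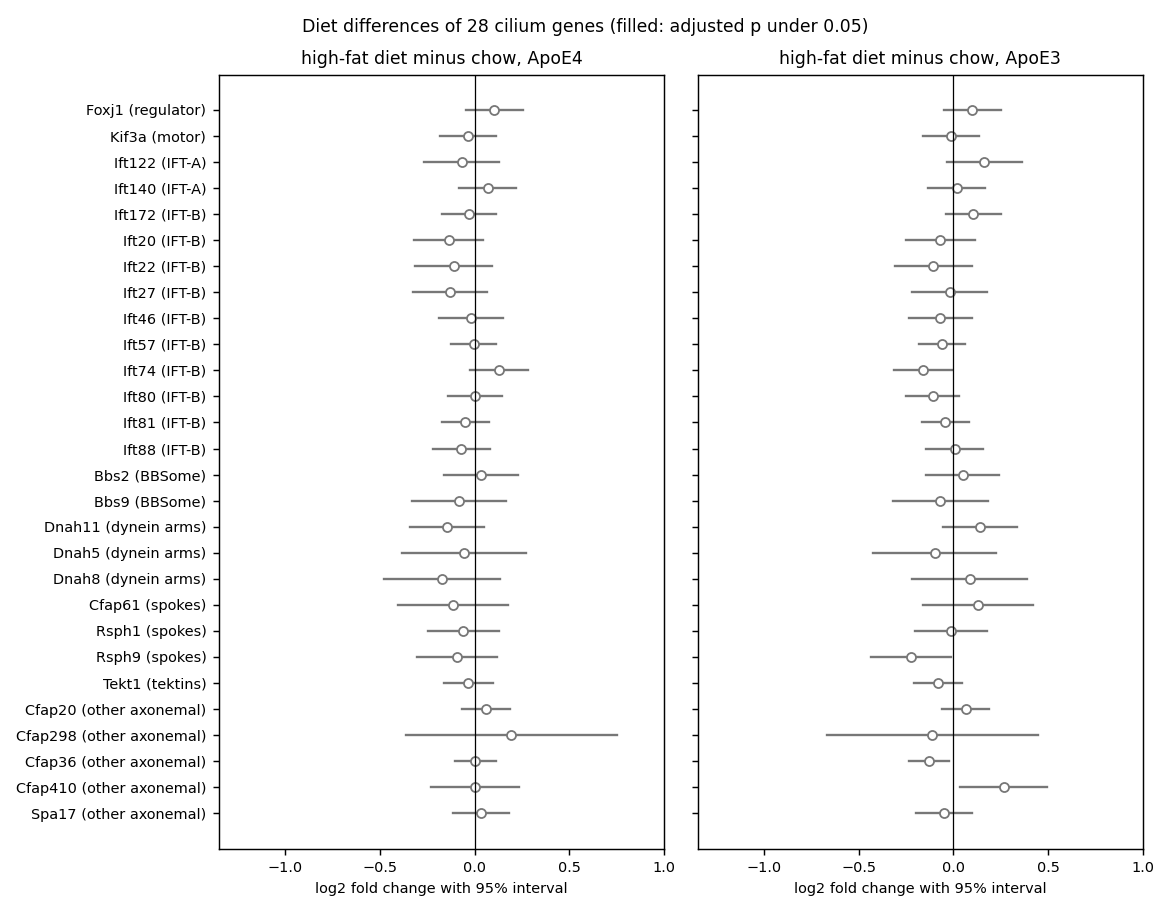
Log2 fold changes of the 28 tested cilium genes (horizontal axis, log2(signal + 16) scale) with 95% intervals, high-fat diet minus chow, in ApoE4 (left) and ApoE3 (right). All points are open, since 0 genes passed an adjusted p of 0.05 in limma in either genotype.

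The interaction, which tests whether the genotype difference depended on diet, passed for 0 of 28 genes in limma, beside 0% of all genes tested. At an unadjusted p under 0.05 there were 2 of the 28 (Ift74 and Dnah11, or 7.14%), beside 10.1% of all genes. Dnah11 lacked a Present call on every ApoE3 array, so its interaction rests on a bound in ApoE3 and nothing is drawn from it. A call on high-fat diet that was missing on chow, as for Ift80 or Cfap61, is therefore not shown to differ between diets. For Cfap61 the interaction was -0.24 ± 0.20 (SE), for Dnah8 -0.26 ± 0.21 (SE) and for Ift140 0.05 ± 0.10 (SE). Sex, compared as female minus male over all 24 arrays, passed for 0 of 28 genes beside 1.28% of all genes, with 5 of the 28 (17.9%) at an unadjusted p under 0.05, beside 14.9% of all genes. The smallest adjusted p was that of Ift80, 0.21, at a difference of -0.13 ± 0.05 (SE).

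Some array measures and cell type lists differed between the genotypes. Hybridization controls, spiked into each sample, averaged, on the log2 scale, 11.24 ± 0.32 on the ApoE4 arrays of the high-fat diet and 11.61 ± 0.09 on the ApoE3 arrays (SD, n = 6 each). That difference did not pass (exact permutation test, adjusted p = 0.0599). On chow the controls averaged 11.29 ± 0.15 on ApoE4 arrays and 11.64 ± 0.13 on ApoE3 arrays (SD, n = 6 each), which passed (exact permutation test, adjusted p = 0.026). The log2 ratio of 3 prime to 5 prime signal of Actb did not pass (exact permutation test, adjusted p = 0.668 on high-fat diet and 0.182 on chow). The 4 arrays of lowest control signal were all ApoE4, 3 on high-fat diet and 1 on chow. Without those 4 arrays 3 cilium genes were higher and 1 lower on high-fat diet. The calls of Ift74, Ift80, Cfap36 and Dnah8 were kept, while Cfap61 (adjusted p = 0.0548 in limma), Ift140 (0.0519) and Ift88 (0.112) missed the threshold at differences of -0.44, -0.24 and -0.20. On chow, without those 4 arrays, Ift140 kept its call, Dnah8 missed the threshold (-0.47, adjusted p = 0.058) and Cfap298 passed it (-0.88, adjusted p = 0.0163). Quantile normalization, which gives all arrays 1 distribution, also left 3 higher and 1 lower, with the adjusted p of Cfap61 at 0.0962, of Ift140 at 0.0763 and of Ift88 at 0.0648. The rises and the fall of Dnah8 on high-fat diet, and the fall of Ift140 on chow, thus held in both settings. Over all genes tested, lower calls on high-fat diet also dropped more than higher calls. They went from 1410 to 787 with quantile normalization and to 1028 without the 4 arrays, while higher calls went from 892 to 826 and to 767. The loss of falls is therefore not particular to the set.

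**Figure D5:**
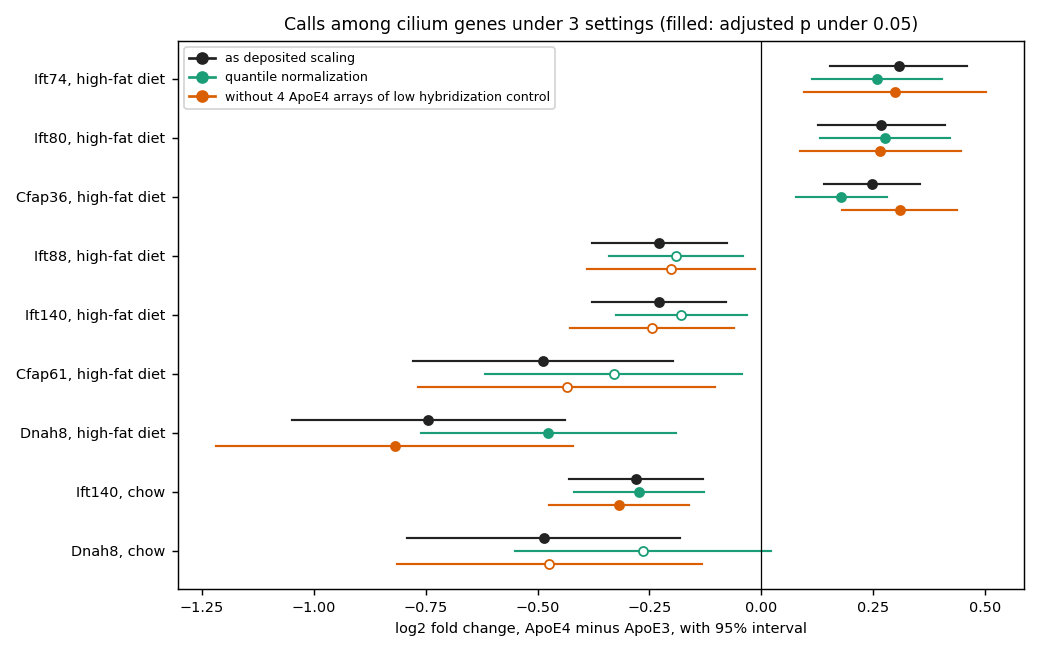
Log2 fold change, ApoE4 minus ApoE3 (horizontal axis), with 95% interval for each cilium gene that passed on high-fat diet (upper rows) or chow (lower rows), as deposited, after quantile normalization and without the 4 ApoE4 arrays of low hybridization control signal. Filled points passed an adjusted p of 0.05: the 3 rises stay filled in all 3 settings, and of the 4 falls on high-fat diet only Dnah8 does. Over all genes tested, lower calls on high-fat diet went from 1410 to 787 and 1028 in these settings, and higher calls from 892 to 826 and 767.

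The mean signals of the epithelial and ependymal marker lists did not pass between the genotypes, while single genes of both lists did. On high-fat diet 1 of 14 ependymal genes rose and 1 fell, and 2 of 20 epithelial genes rose and 2 fell. Over all genes tested, 10.8% were higher and 17.1% lower there. The mean log2 signal of the ependymal list (14 of 19 genes tested) was 9.57 to 9.73 in ApoE4 and 9.55 to 9.87 in ApoE3 on high-fat diet (exact permutation test, two-sided, adjusted p = 0.813 over 72 tests). In that list Mlf1, a cilium-associated gene, rose by 0.31 ± 0.09 (SE, adjusted p = 0.0139 in limma) and Aqp4, the water channel of astrocytes and ependyma, fell, with a difference of -0.47 ± 0.15 (SE, adjusted p = 0.0199). On chow Vim, an intermediate filament gene, fell, with a difference of -0.39 ± 0.11 (SE, adjusted p = 0.0284). The epithelial list (20 of 25 genes tested) spanned 12.45 to 12.62 in ApoE4 and 12.54 to 12.66 in ApoE3 (exact permutation test, adjusted p = 0.681). On high-fat diet 2 of its genes rose, Folr1, a folate receptor, by 0.21 ± 0.06 (SE, adjusted p = 0.0182 in limma) and Cldn1, a tight junction protein, by 0.21 ± 0.08 (SE, adjusted p = 0.0493). There 2 fell, Igf2, a growth factor, with a difference of -0.21 ± 0.06 (SE, adjusted p = 0.0129) and Kl, with -0.22 ± 0.08 (SE, adjusted p = 0.0426), and on chow 0 of 20 passed.

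Some genes of other cell types were lower in ApoE4 too, beside 17.1% of all genes lower on high-fat diet and 5.6% on chow. The myelin list (7 of 12 tested) was lower in ApoE4, with 7.99 to 8.59 in ApoE4 and 8.54 to 8.89 in ApoE3 on high-fat diet (exact permutation test, adjusted p = 0.0312), where 1 of its genes rose and 5 fell. The smooth muscle list (11 of 12 tested) was lower too, with 8.35 to 8.60 in ApoE4 and 8.54 to 8.89 in ApoE3 (exact permutation test, adjusted p = 0.0312), and 6 of its genes fell. On chow the smooth muscle list had 8.30 to 8.61 in ApoE4 and 8.65 to 9.03 in ApoE3 (exact permutation test, adjusted p = 0.026), and the myelin list 7.98 to 8.38 in ApoE4 and 8.16 to 8.58 in ApoE3 (exact permutation test, adjusted p = 0.189). Between diets, the myelin list mean was higher on high-fat diet by 0.36 in ApoE3 (exact permutation test, adjusted p = 0.0312). In ApoE4 it differed by 0.05 (adjusted p = 0.79). Mbp was higher on high-fat diet in ApoE3 by 0.80 ± 0.17 (SE, adjusted p = 0.0451 in limma). The part of this diet difference in the genotype difference was not tested. Of 8 neuron genes tested, 2 fell on high-fat diet and 1 on chow. Gria2, a glutamate receptor subunit, fell on both, with differences of -1.12 ± 0.18 (SE, adjusted p = 0.000145) on high-fat diet and -0.77 ± 0.18 (SE, adjusted p = 0.0104) on chow in limma, and Nefh, a neurofilament gene, on high-fat diet, with -1.19 ± 0.33 (SE, adjusted p = 0.0133). The astrocyte gene Mt3 fell too, with -1.12 ± 0.13 (SE, adjusted p = 3.09e-06) on high-fat diet and -0.45 ± 0.13 (SE, adjusted p = 0.0327) on chow, among 2 and 1 falls of 9 tested. Of 15 macrophage genes 5 fell on high-fat diet, and on chow 1 rose and 2 fell. Stab1, a scavenger receptor, fell on both diets, with -0.86 ± 0.14 (SE, adjusted p = 9.57e-05) on high-fat diet and -0.82 ± 0.14 (SE, adjusted p = 0.000591) on chow, as did Cd163, with -0.58 ± 0.16 (SE, adjusted p = 0.0116) and -0.86 ± 0.16 (SE, adjusted p = 0.00194). Endothelial genes had 2 falls of 11 on high-fat diet and 1 on chow, and 0 of 9 stromal genes passed on either diet. The list means of these types did not pass on either diet (exact permutation tests, adjusted p of 0.0935 or more). After quantile normalization, 3 of 7 myelin genes and 1 of 11 smooth muscle genes were lower on high-fat diet. The macrophage list had 3 of 15 and the neuron list 2 of 8. The astrocyte list had 1 of 9 and the endothelial list 1 of 11. Over all genes 787 of 8261 were then lower on that diet. On chow 5 of 11 smooth muscle genes fell as deposited and 3 of 11 after quantile normalization, beside 463 and 261 of 8261 genes. For myelin these were 1 of 7 and 0 of 7. The part of these cell types in the cilium values was not tested.

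Other cilium genes, from 5 lists of 176 genes of which 69 were tested, were called about as often as all genes. On high-fat diet 7 rose and 15 fell, or 31.9%, beside 27.9% of all genes (10.8% higher and 17.1% lower). On chow 3 rose and 4 fell, or 10.1%, beside 9.74%. The median log2 difference of the 69 genes was -0.06 on high-fat diet and -0.01 on chow, and 0 passed for diet in either genotype. After quantile normalization fewer genes were lower on high-fat diet in each of the 5 lists, as over all genes tested (787 of 8261, against 1410). Higher calls went from 2 to 3 for IFT motors and adaptors and from 2 to 1 for transition zone genes. They were unchanged in the other lists, and over all genes went from 892 to 826.

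Among 11 tested IFT motors and adaptors, 2 rose and 2 fell on high-fat diet, and 1 rose and 1 fell on chow. Of all genes tested, 10.8% were higher and 17.1% lower on high-fat diet, and 4.14% and 5.6% on chow. Ttc30b, a peptide-repeat protein of IFT-B, was higher by 0.38 ± 0.08 (SE, adjusted p = 0.00173) on high-fat diet and 0.30 ± 0.08 (SE, adjusted p = 0.0217) on chow, all in limma. Kif3c, a kinesin-2 motor subunit, was lower, with a difference of -0.34 ± 0.08 (SE, adjusted p = 0.00361) on high-fat diet and -0.34 ± 0.08 (SE, adjusted p = 0.00883) on chow. Transition zone genes, which guard the base of the cilium, had 2 rises and 2 falls of 14 on high-fat diet and 2 rises on chow. After quantile normalization these were 1 rise and 1 fall on high-fat diet and 1 rise on chow. Rpgrip1, a scaffold of that zone, rose by 0.40 ± 0.07 (SE, adjusted p = 0.000345) on high-fat diet and 0.24 ± 0.07 (SE, adjusted p = 0.0369) on chow in limma. Tctn2, a membrane-complex subunit there, fell, with a difference of -0.24 ± 0.08 (SE, adjusted p = 0.023) on high-fat diet, and Rp2, a factor for lipid-modified cilium proteins, rose by 0.31 ± 0.10 (SE, adjusted p = 0.0441) on chow.

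Of 23 axoneme and dynein assembly genes, 0 passed on chow in limma. On high-fat diet 1 rose and 6 fell, beside 10.8% of all genes higher and 17.1% lower. Mns1, a protein inside the doublet tubules, rose by 0.28 ± 0.08 (SE, adjusted p = 0.0102), and Spef1, of the central pair, fell, with a difference of -0.33 ± 0.09 (SE, adjusted p = 0.00614). The mean of this list was lower in ApoE4 by an amount that did not pass (9.02 to 9.12 in ApoE4 and 9.08 to 9.22 in ApoE3 on high-fat diet, exact permutation test, adjusted p = 0.0519). After quantile normalization 1 of the 23 was higher and 3 were lower on high-fat diet, with a median difference of -0.03. Genes of the multiciliation programme had 2 rises and 2 falls of 10 on high-fat diet and 1 fall on chow, where 5.6% of all genes were lower. Cetn2, a centrin of basal bodies, rose by 0.23 ± 0.05 (SE, adjusted p = 0.00288), Fank1 fell, with a difference of -0.77 ± 0.17 (SE, adjusted p = 0.00181) and, on chow, Myb, a transcription factor early in multiciliation, fell, with a difference of -0.48 ± 0.15 (SE, adjusted p = 0.0441).

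Genes of signalling through the cilium that passed were all lower in ApoE4. Of 11 tested, 3 fell on high-fat diet and 2 on chow, with 0 rises in limma on either, beside 17.1% and 5.6% of all genes lower. After quantile normalization 2 were lower on high-fat diet and 1 on chow. Adcy3, the adenylyl cyclase of neuronal primary cilia, fell, with a difference of -0.69 ± 0.11 (SE, adjusted p = 9.05e-05) on high-fat diet and -0.62 ± 0.11 (SE, adjusted p = 0.000839) on chow. Of 8 neuron genes tested, only Gria2 fell on both diets, as given above, and it was Present on 15 of 24 arrays. The differences of the 8 ranged from -1.19 to 0.26 on high-fat diet and from -0.77 to 0.10 on chow. The neuron list mean did not pass (exact permutation test, adjusted p = 0.138 on high-fat diet and 0.468 on chow). The part of neuronal RNA in the Adcy3 values was not tested. Boc, a co-receptor of Hedgehog ligands, fell, with a difference of -0.40 ± 0.11 (SE, adjusted p = 0.0109) on high-fat diet, and Tub, which brings receptors into cilia, fell, with a difference of -0.41 ± 0.12 (SE, adjusted p = 0.0278) on chow. The list mean was 8.47 to 8.61 in ApoE4 and 8.64 to 8.81 in ApoE3 on high-fat diet, and 8.37 to 8.56 in ApoE4 and 8.62 to 8.76 in ApoE3 on chow, without overlap on either diet. The exact permutation test gave p = 0.00216, the smallest that 6 against 6 arrays allow, and 0.026 adjusted over 72 tests. The median signal of the whole array was itself lower in ApoE4, at 141.7 to 159.9 in ApoE4 and 167.7 to 179.45 in ApoE3 on high-fat diet, without overlap (exact permutation test, adjusted p = 0.026). On chow the array medians were 145.6 to 164.8 in ApoE4 and 153.45 to 181.8 in ApoE3 (exact permutation test, adjusted p = 0.0779). Their part in the list mean was not tested.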

How the data were processed

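Choroid plexus RNA of 24 mouse samples was measured on 1-colour Affymetrix arrays. The deposited intensity values are the authors' signals on a linear scale, made with GCOS 1.4 per the submitters' processing notes. The algorithm is not given in the sources used here. A mean trimmed by 2% at each end was 500.2 on every array. Each deposited signal came with the authors' detection call (Present, Marginal or Absent), which was used to filter genes, and with a detection p-value, which was left aside. The signals of both deposited tables were equal in all 544560 cells.

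A constant of 16 was added to each signal before the log2. Of 22690 probe sets, 64 were controls and 20380 named 1 gene by the array's annotation. A gene was tested if a probe set of it was Present on at least 6 of 24 arrays, and the one of highest mean stood for it, which left 8261 of 12393 genes. The 24 arrays entered 1 linear model in limma 3.58.1 (R 4.3.3) that estimated the 4 group means and a sex effect, with trended, robust empirical Bayes variances. Two-sided p-values of each of the 6 comparisons were corrected by the Benjamini-Hochberg method over the 8261 genes, with a threshold of 0.05. Array measures were compared by exact permutation tests, two-sided, with Python 3.11.15, numpy 2.4.6 and pandas 2.3.3. Figures were drawn with matplotlib 3.10.9. Promoter sequences are those of RefSeq on build GRCm38.p6.

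The fit was tested on data simulated from each gene's mean and spread in these arrays. Each of 5 simulations changed 200 of 8261 genes. For the genotype comparison on high-fat diet, 24.2% of genes changed 1.2-fold and 77.2% of genes changed 1.5-fold were recovered. In the data 2302 genes passed in that comparison, so a larger unadjusted p could pass there than in the simulations. These shares therefore do not give the recovery in the data. The genes of the set, the lists and the tests were chosen with earlier results of these data known. Genes named with values were those that passed by genotype or diet (up to 6 per direction), the 3 of highest and 3 of lowest signal, and Foxj1, Spa17, Kif3a and Ift88. From each other cilium list, the 2 with the smallest adjusted p that passed were named. Genes of the cell type lists and the remaining genes of the set with values were added to these for a full account, after their values were seen. Alternatives were adding 1 or 64 before the log, quantile normalization, dropping the filter or raising it to 12 arrays, dropping sex, blocking on replicate number, using only the arrays compared, averaging a gene's probe sets, and leaving out each array. Chosen after seeing the data was a fit that left out 4 arrays with the lowest signal over 18 hybridization control probe sets.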

Additional observations from a re-analysis of the deposited data

Results flagged for a closer look

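In 8 of 112 gene-by-group sets of 6 arrays, 1 array stood apart from the other 5 by Dixon's criterion for the gap to the nearest array over the range of the group, which chance gives in about 1 of 20. Foxj1 was high on female replicate 4 of ApoE4 on high-fat diet, at 848.1 against 722.7 to 762.5 on the others, and on female replicate 4 of ApoE3 on chow, at 840.4 against 628.6 to 687.9. Ift88 was high on male replicate 1 of ApoE3 on high-fat diet, at 698.7 against 523.7 to 575.1, and its call on that diet was lost without that array. Ift27 was high on male replicate 3 of ApoE4 on high-fat diet, at 1117.4 against 852.9 to 936.3. Cfap410 was low on the same array, at 163.3 against 233.4 to 277.3. Tekt1 was low on male replicate 2 of ApoE4 on high-fat diet, at 821.9 against 863.4 to 888.9. Ift20 was low on male replicate 3 of ApoE3 on chow, at 721.8 against 805.7 to 857.9. Cfap298 was low on female replicate 6 of ApoE3 on high-fat diet, at 1309.1 against 1873.3 to 2150.9.

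A probe set that names both Rsph3a and Rsph3b, radial spoke genes, lay outside the set because it names more than 1 gene. It was Present on 24 of 24 arrays. Its lowest, median and highest signals were 1585, 1706 and 1948 in ApoE4 and 1590, 1741 and 1841 in ApoE3 on high-fat diet, and the groups overlapped.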

How the results depend on the processing

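Over 34 alternatives the calls of Ift74, Ift80, Cfap36 and Dnah8 on high-fat diet and of Ift140 on chow held in every one. Of 3800 results for single genes, 3767 kept their direction and side of the threshold or missed it in both, 19 calls were lost, 14 were gained and 0 called results reversed, while 101 that did not pass changed sign. The cause of these losses and gains was not tested. On high-fat diet the genes lower in ApoE4 numbered 1 (Dnah8) with quantile normalization and 1 without the 4 arrays of low hybridization control signal, against 4. On chow they numbered 1 (Ift140) with quantile normalization, 1 without the filter and 1 with only the arrays compared, against 2. Without the filter 1 gene was higher on chow (Cfap97), against 0, but its probe set was Present on 0 of 24 arrays. With each array left out in turn, 3 to 4 genes were higher and 3 to 5 lower on high-fat diet, and 0 were higher and 1 to 3 lower on chow. The diet, interaction and sex comparisons gave 0 to 0 in these fits. Spa17 on high-fat diet passed in 9 of the 34, at 0.19 to 0.21: with the replicate block, with only the arrays compared, with a gene's probe sets averaged and in 6 fits that left out 1 array (adjusted p of 0.0352 to 0.0484 in limma).

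Over all genes, quantile normalization gave 826 higher and 787 lower on high-fat diet, against 892 and 1410, and 293 higher and 261 lower on chow, against 342 and 463. Without the 4 arrays there were 767 higher and 1028 lower on high-fat diet.

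Replicate numbers are shared between groups, but arrays of the same number did not deviate together (correlations of -0.19 to 0.15, with at most 1 of 6 pairs over 0.1). With the replicate number as a block, 4 genes were higher and 4 lower on high-fat diet, and 0 were higher and 2 lower on chow. For 3 of 6 numbers on chow and 2 of 6 on high-fat diet, an array correlated best, among arrays of its sex in the other genotype, with that of its own number.

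Genes of low signal, Dnah8 and Dnah5 among them, limit the precision of their fold changes. Changes of 1.2-fold were mostly missed in simulations that changed 200 of 8261 genes, which does not give the share missed in these data.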
